A study of Mus musculus with 20 samples.

Results

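The proteasome subunit genes of mouse cerebellum were followed in 20 mice that differed in age and in a knock-in of the ataxin-3 gene. The genes are those annotated as protein-coding whose symbol starts with Psm, a letter from a to g and a number, and 50 of the 29200 genes in the count table met this rule. Of these, 16 belong to the core particle (Psma and Psmb genes), 3 are the immunoproteasome genes Psmb8, Psmb9 and Psmb10, 25 are regulatory (Psmc, Psmd and Psme genes), 5 are the inhibitor Psmf1 and the core assembly genes Psmg1 to Psmg4, and 1, Psmc3ip, has a matching symbol but encodes a recombination factor and not a subunit.

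RNA was taken from whole cerebellum of male mice of the strain C57BL6/N, with 5 mice in each of 4 groups. WT/WT mice carried 2 unchanged alleles, and 304Q/304Q mice carried, on both alleles and under the gene's own promoter, an expanded repeat of CAG codons interrupted by CAA codons, encoding 304 glutamines, that had been placed in the Atxn3 locus with zinc-finger nucleases. Both genotypes were sampled at 2 months and at 12 months of age. All 304Q/304Q mice belong to 1 knock-in line, so line and allele cannot be told apart. Atxn3 itself had 239.9 to 332.1 normalized counts in WT/WT against 158.2 to 240.6 in 304Q/304Q mice at 2 months, and 201.6 to 234.1 against 180.7 to 220.2 at 12 months, so the genotypes overlapped at both ages. Gene counts do not show the length of the repeat, and genotypes were taken from the labels.

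The proteasome is the protease that degrades proteins tagged with ubiquitin. Its barrel-shaped core is built of rings of alpha subunits, which form the gate, and rings of beta subunits, of which Psmb5, Psmb6 and Psmb7 carry the catalytic sites. A regulatory particle of ATPase (Psmc) and non-ATPase (Psmd) subunits binds ubiquitinated protein, unfolds it and feeds it into the core. Interferon gamma induces Psmb8, Psmb9 and Psmb10, which replace the catalytic subunits Psmb5, Psmb6 and Psmb7 in new core particles, and it also induces the activator genes Psme1 and Psme2. Ataxin-3 itself is a deubiquitinase, and ubiquitin-positive inclusions are a hallmark of polyglutamine disease.

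Libraries held between 11385380 and 27636687 counts, and the highest total was that of 2-month-old 304Q/304Q mouse 1. A mean of at least 50 counts per library was required for testing, which left 12153 genes of the table and 43 of the 50 proteasome genes. These were 14 of the 16 core genes, 1 of the 3 immunoproteasome genes (Psmb10), 24 of the 25 regulatory genes, and 4 of the 5 genes for the inhibitor and core assembly. Markers of Purkinje, granule, oligodendrocyte and astrocyte cells, all 6 of 6 tested in each list, were present in all groups. Choroid plexus RNA (summed markers over 1000 normalized counts) was found in 0 of 5 libraries of 2-month-old WT/WT mice, 1 of 2-month-old 304Q/304Q mice, 3 of 12-month-old WT/WT mice and 2 of 12-month-old 304Q/304Q mice. In such bulk tissue, fewer cells of a type and less RNA per cell cannot be told apart.

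The start-site regions of the 3 genes below are shown because the results turn on them. Psme1 was the member called in the tests, and Psmb8 and Psmb5 are the immune and the constitutive form of the same catalytic position. Each window runs from 250 bases before to 50 bases after the RefSeq start site (GRCm38.p6, 5′ to 3′ on the gene's strand), at chr14:55578244-55578543 (plus strand) for Psme1, chr17:34197945-34198244 (plus strand) for Psmb8 and chr14:54617946-54618245 (minus strand) for Psmb5. Capitals mark a match to the core of the interferon-stimulated response element (GAAA, any 2 bases, GAAA, here on the opposite strand) in Psme1, to a gamma-activated site (TTCNNNGAA) in Psmb8 and to the core of the antioxidant response element (TGACNNNGC) in Psmb5.
Psme1: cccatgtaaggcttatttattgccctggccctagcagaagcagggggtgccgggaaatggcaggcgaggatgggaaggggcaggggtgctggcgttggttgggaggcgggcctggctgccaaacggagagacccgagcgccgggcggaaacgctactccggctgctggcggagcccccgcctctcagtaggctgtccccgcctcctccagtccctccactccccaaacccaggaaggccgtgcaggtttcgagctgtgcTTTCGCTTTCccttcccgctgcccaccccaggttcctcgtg
Psmb8: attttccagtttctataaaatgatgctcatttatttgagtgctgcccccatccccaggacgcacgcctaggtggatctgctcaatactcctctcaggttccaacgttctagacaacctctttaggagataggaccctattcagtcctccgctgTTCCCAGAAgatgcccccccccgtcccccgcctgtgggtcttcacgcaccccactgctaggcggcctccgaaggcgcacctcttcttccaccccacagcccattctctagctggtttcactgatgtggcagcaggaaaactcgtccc
Psmb5: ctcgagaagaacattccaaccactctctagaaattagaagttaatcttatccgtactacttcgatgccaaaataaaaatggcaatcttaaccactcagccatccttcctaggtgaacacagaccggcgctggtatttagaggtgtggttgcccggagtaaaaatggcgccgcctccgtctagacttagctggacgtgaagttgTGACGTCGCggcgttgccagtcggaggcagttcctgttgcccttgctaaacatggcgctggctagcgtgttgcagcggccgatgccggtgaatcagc

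A window was held for 42 of the 50 genes, and the motifs were searched on both strands. None of the motifs contains another. The interferon-stimulated core occurred in 5 of the 42 genes (Psmb3, Psmd4, Psmd9, Psme1 and Psmg4), which is 11.9%, against 3.99% of the 27025 genes of the table with a window. In Psme1 the match began 10 bases after the start site. The gamma-activated site TTCNNNGAA occurred in 3 genes (7.14%, against 9.55% of all), namely Psmb8, Psmd2 and Psmg1, and in Psmb8 it began 97 bases before the start. The antioxidant core TGACNNNGC, the kind of element bound by the NRF1 and NRF2 factors, occurred in 6 of the 42 genes (14.3%, against 14% of all). Of the 12 core genes with a window Psmb5 and Psmb6 held it, and of the 22 regulatory genes Psmc6, Psmd9, Psmd12 and Psme4. CCAAT occurred in 7 of the 12 core genes and in 6 of the 22 regulatory genes, and in 35.7% of all 42 against 41.1% of all genes. These are matches of letters in a short window and were not tested for binding.

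Levels were compared between genes as RPKM, reads per kilobase of merged exons set to a common library size. With this length, the highest mean over the 20 mice was that of the ATPase Psmc5, at 109.3 RPKM (range 99.7 to 131.7), followed by Psmc1 (63.5 RPKM) and Psmb6 (61.9 RPKM). The order depends on the length used: with the longest transcript of each gene in place of the merged exons, Psmb6 (119.9 RPKM) stood above Psmc5 (109.3 RPKM). The 7 alpha genes lay between 14.6 (Psma3) and 47.9 RPKM (Psma6), and the 7 beta genes of the standard core between 17.6 (Psmb7) and 61.9 RPKM (Psmb6). The 6 ATPase genes lay between 17.7 (Psmc2) and 109.3 RPKM, and the 11 non-ATPase genes between 12.1 (Psmd6) and 50.2 RPKM (Psmd2). The 31 genes whose products sit in the core or the regulatory particle spanned a 9.04-fold range of RNA levels, from Psmd6 to Psmc5, and a 5.99-fold range, from Psma3 to Psmb6, with the longest transcript as length.

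**Figure D1:**
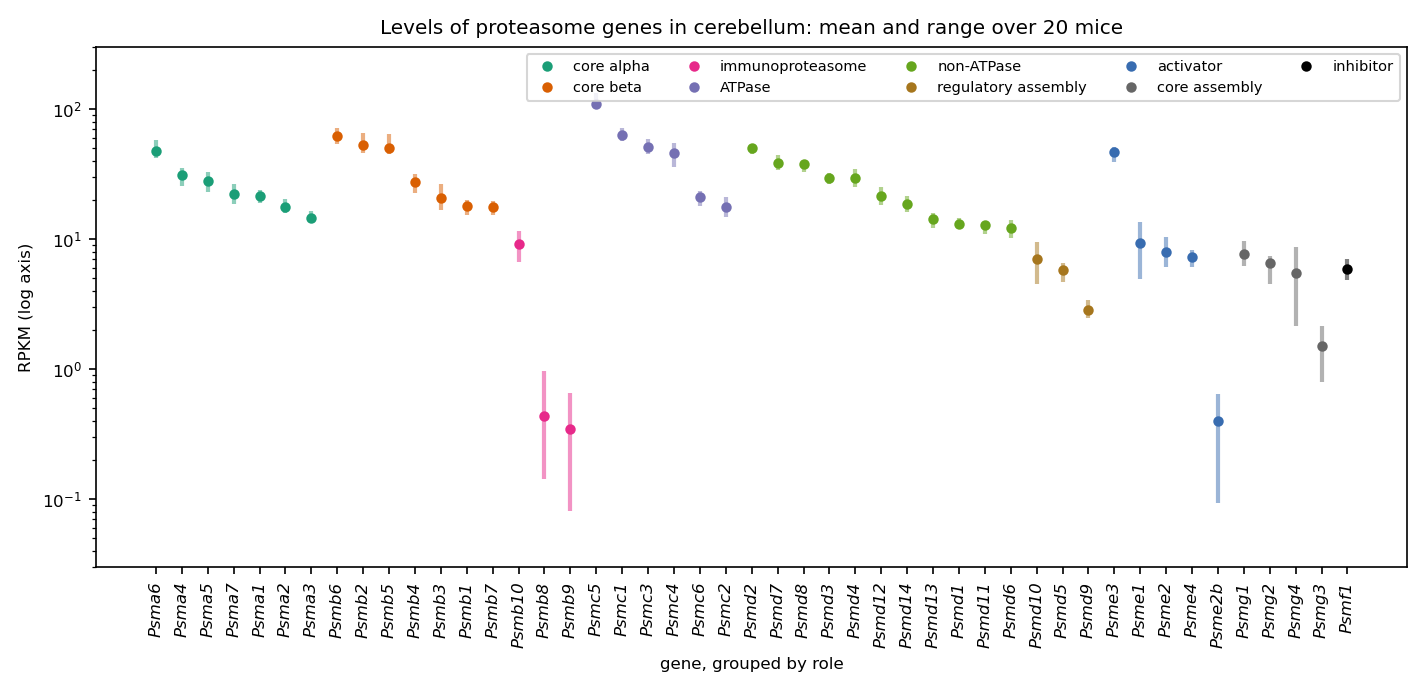
Mean RPKM over 20 mice (points, log axis) with the lowest and highest mouse (bars) for the 47 subunit, activator, inhibitor and assembly genes that had counts in every library, ordered within each role. With the merged exons used here as length Psmc5 stands highest at 109.3 RPKM (Psmb6 does with the longest transcript), the immune subunits Psmb8 and Psmb9 lie under 1 RPKM in every mouse, and Psmb10 has a mean of 9.09 RPKM.

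Assembly chaperones and activators were mostly lower than the subunits. The regulatory assembly genes Psmd5, Psmd9 and Psmd10 had means of 5.79, 2.85 and 6.98 RPKM, and the core assembly genes Psmg1, Psmg2 and Psmg3 had means of 7.61, 6.54 and 1.51 RPKM. Among the activators, Psme3, which encodes a nuclear activator, had 47.0 RPKM, whereas Psme1, Psme2 and Psme4 had 9.25, 7.99 and 7.34 RPKM. The inhibitor Psmf1 had 5.85 RPKM. In the order of levels of the 48 genes with counts in every library, the ranges over mice of neighbouring genes overlapped in all but 2 of 47 places, between Psmc5 and Psmc1 and between Psmd9 and Psmg3.

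The 7 genes that were not tested were low. Psmg4 (core assembly) had a mean of 44.0 counts per library. Its normalized counts were 38.9, 28.3, 40.2, 17 and 30.8 in WT/WT mice of 2 months and 56.0, 47.2, 63.5, 44.7 and 35.3 in 304Q/304Q mice of that age. At 12 months they were 45.7, 68.4, 56.7, 58.2 and 61.1 in WT/WT mice and 41.2, 24.4, 43.8, 40.3 and 28.1 in 304Q/304Q mice, so that the genotypes did not overlap at 12 months and overlapped at 2 months. Of all genes tested, 8.94% did not overlap between genotypes at 12 months. With edgeR's own filter on low counts, which keeps the gene, Psmg4 rose with age in WT/WT mice (0.90 on the log2 scale, adjusted p = 0.0183) and its interaction was −1.38 (adjusted p = 0.0319). With this filter 8.43% of all genes were called with age in WT/WT mice and 1.29% for the interaction. The log2 fold changes were then 0.67 at 2 months (adjusted p = 0.788) and −0.71 at 12 months (0.0557) between genotypes and −0.48 with age in 304Q/304Q mice (0.288). With no filter the interaction was −1.38 (adjusted p = 0.0539). Of the others, Psmc3ip had a mean of 31.9, Psmb8 20.5, Psmb9 17.3 and Psme2b 4.75. The genotypes did not overlap at 12 months for Psme2b either, with 1.11 to 4.28 normalized counts in WT/WT and 6.02 to 7.63 in 304Q/304Q mice, which are very few reads. Psma8, the alpha subunit of the testis, had 3.35 counts and was at 0 in 5 libraries. Psmb11, the beta subunit of the thymus, had 0.7 counts and was at 0 in 15 libraries.

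Variation between mice of a group was set against that of all genes tested, without matching for expression level. The median coefficient of variation was 7.83% over the 43 tested genes, against 10.7% over all 12153 genes tested. The least variable was the non-ATPase gene Psmd3 with 4.48% (mean of 2087 counts), and the most variable the core assembly gene Psmg3 with 25.4% (mean of 62.05 counts). Psmb10 (13.1%), Psme1 (15.1%) and Psmd10 (18.2%) varied more than all of the standard core genes, which reached at most 10.1% (Psma7).

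The first comparison asked whether the expanded allele went with a change in proteasome RNA before symptoms. At 2 months, edgeR's quasi-likelihood test called 0 of the 43 genes, where called means a p of 0.05 or less after Benjamini-Hochberg adjustment, and of all genes tested it called 0.0494%. At an unadjusted p under 0.05 there were 2 of 43, Psmc2 (log2 fold change 0.15 ± 0.07, SE) and Psmd6 (0.17 ± 0.07), against 5.55% of all genes. DESeq2 called 0 of the 43 and 0.181% of all genes. The highest values were those of Psme1 (0.18), Psmd6 (0.17) and Psmg2 (0.17), and the lowest those of Psma2 (−0.03), Psmc1 (−0.03) and Psmd5 (−0.02). All 14 core and all 24 regulatory genes had a 95% interval that stayed between −0.5 and 0.5, with core bounds from −0.17 to 0.31.

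Although no gene passed, 36 of the 43 genes had a value above 0, against 49.3% of all genes tested, and their median was 0.05. It was 0.05 for the core genes (11 of 14 above 0) and 0.04 for the regulatory genes (20 of 24 above 0). Many of the genes moved together within single mice, so the 43 values are not independent. In WT/WT mice 1, 2 and 3 only 7, 12 and 9 of the 43 lay above their 20-mouse mean, and in mice 4 and 5 there were 29 and 27. In the 304Q/304Q mice there were 29, 24, 27, 27 and 10. The groups did not overlap for 1 gene, the core gene Psmb1, where 1.05% of all genes did not overlap. Psmb1 had 1001, 1123, 1002, 1183 and 1182 normalized counts in the WT/WT mice and 1185, 1195, 1226, 1212 and 1195 in the 304Q/304Q mice. Its adjusted p was 0.883, and only a narrow gap separated the groups.

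At 12 months, when the 304Q/304Q mice show symptoms, edgeR called 0 of the 43 proteasome genes, whereas it called 12.5% of all genes tested. At an unadjusted p under 0.05 there were 5 of 43, against 27.3% of all genes. Psme1 (log2 fold change 0.39 ± 0.14, SE), Psmc6 (0.17 ± 0.06) and Psmd6 (0.16 ± 0.07) were among these on the higher side, and Psmd10 (−0.34 ± 0.16) and Psma7 (−0.18 ± 0.09) on the lower side, with adjusted p-values of 0.0691, 0.0904, 0.162, 0.179 and 0.177. DESeq2 called 1 gene of the 43, Psme1 (adjusted p = 0.0381), beside 14.5% of all genes. Psme1, Psme2 (0.18) and Psmg1 (0.17) had the highest values, and Psmd10, Psma7 and Psmb10 (−0.15) the lowest.

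In the fit of all 20 libraries, the subunits of the proteolytic core stayed close to their WT/WT levels at 12 months. Without the libraries with choroid plexus RNA, the core genes Psmb5, Psmb6 and Psmb7 had −0.22, −0.20 and −0.13. The median over the 43 genes was then −0.11. The values that follow are from all 20 libraries. Of the 14 core genes, 11 lay below 0 and 3 above, with a median of −0.04 and 95% interval bounds from −0.36 (Psma7) to 0.21 (Psma1), so that none of the 14 intervals reached a log2 fold change of 0.5 in size. Of the 24 regulatory genes, 15 lay above 0 and 9 below, with a median of 0.03 (Psmd10 and Psme1 had intervals beyond 0.5 in size). Over all 43 genes 20 lay above 0 with a median of −0.01, and over all genes tested 49.1% lay above 0. Summed over the 14 core genes, the level was 443.6 ± 37.7 RPKM (SD, n = 5) in WT/WT against 430.3 ± 16.7 in 304Q/304Q mice. Summed over the 17 ATPase and non-ATPase genes, it was 599.4 ± 36.9 RPKM in WT/WT against 593.8 ± 6.7 in 304Q/304Q mice.

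Single libraries moved other calls at 12 months. Without 12-month-old WT/WT mouse 1, the ATPase gene Psmc6 was called (log2 fold change 0.22, edgeR adjusted p = 0.0104), as were 17% of all genes. Without 12-month-old 304Q/304Q mouse 5, the assembly gene Psmd10, also known as gankyrin, was called (−0.54, adjusted p = 0.016), as were 13.5% of all genes. Psmd10 had 94.7, 117.4, 125.0, 125.4 and 197.7 normalized counts in the 304Q/304Q mice, of which the last is mouse 5, and 158.1, 179.4, 172.1, 188.6 and 137.7 in the WT/WT mice. Mouse 5 was thus the only 304Q/304Q mouse within or above the WT/WT range. Markers of other cell types moved in the same comparison, and their part in these values was not tested. Summed Purkinje cell markers lay between 84660 and 90970 normalized counts in 304Q/304Q and between 108300 and 116900 in WT/WT mice, with 5 of 6 markers called lower. Summed oligodendrocyte markers lay between 44460 and 62380 against 69330 and 79140, with 4 of 6 called lower. Summed blood markers lay between 1367 and 1589 against 1649 and 3503, with 4 of 5 called lower and a median log2 fold change of −1.002. Of 6 markers each, 2 of astrocytes and 1 of endothelial cells were called lower and 0 of granule cells were called by edgeR, with 1 granule marker at an unadjusted p under 0.05. Of all genes tested, 12.5% were called in this comparison of genotypes at 12 months, and 27.3% had an unadjusted p under 0.05.

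**Figure D2:**
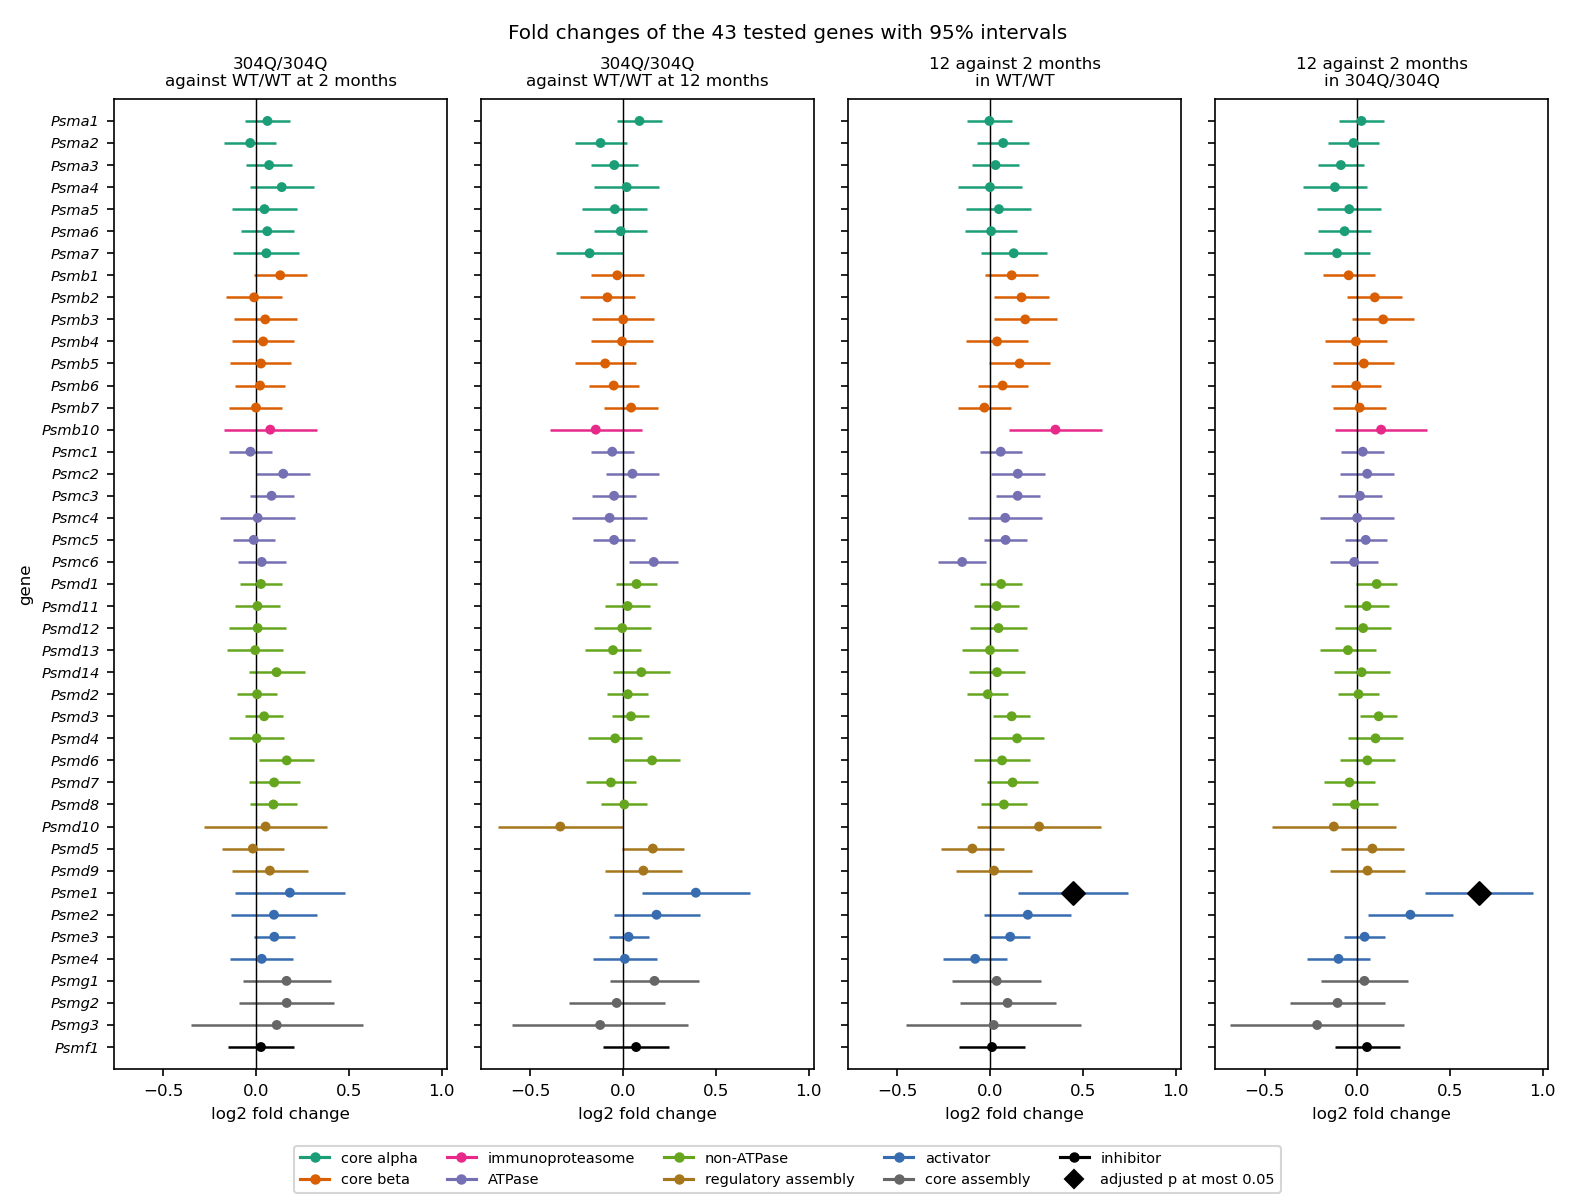
Log2 fold changes (points) with 95% intervals (bars) of the 43 tested genes in 4 comparisons, coloured by role, with a black diamond where the adjusted p was at most 0.05. Most intervals include 0, and Psme1 carries both diamonds, at 0.45 for age in WT/WT mice and at 0.66 for age in 304Q/304Q mice.

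Psme1 encodes the alpha subunit of the interferon-inducible activator that caps the core in place of the regulatory particle. It lies on chromosome 14 (55578123 to 55581529, plus strand, GRCm38). Its normalized counts were 154.3, 189.6, 192.8, 265.7 and 293.2 in WT/WT mice of 2 months and 258.3, 207.1, 250.9, 303.5 and 226.5 in 2-month-old 304Q/304Q mice. At 12 months they were 227.2, 334.0, 345.3, 291.9 and 299.8 in WT/WT mice and 424.1, 356.7, 413.9, 369.6 and 403.5 in 304Q/304Q mice. All 12-month-old 304Q/304Q mice thus lay above every mouse of the other 3 groups, while the WT/WT groups of the 2 ages overlapped.

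With age, Psme1 rose in 304Q/304Q mice by 0.66 ± 0.14 on the log2 scale (SE, edgeR adjusted p = 0.00364). It was the 1 gene of 43 called in this comparison, in which 7.26% of all genes were called. In WT/WT mice it rose by 0.45 ± 0.14 (adjusted p = 0.0457) and was again the 1 gene of 43 called, beside 11.5% of all genes. The difference between the 2 age effects was 0.21 ± 0.20 (adjusted p = 0.633), so the rise was not shown to differ between the genotypes. These contrasts share the groups with the comparison of genotypes at 12 months, where the fold change of Psme1 was 0.39 and the groups did not overlap, as was so for 8.94% of all genes.

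The calls of Psme1 differed in how they depended on the libraries. The call in 304Q/304Q mice was kept when any 1 of the 20 libraries was left out (adjusted p from 0.00143 to 0.0145) and was lost without the 6 libraries with choroid plexus RNA (0.59, adjusted p = 0.0794). The call in WT/WT mice was lost under 20 of 31 alternatives, among them leaving out any 12-month-old 304Q/304Q mouse (0.0503 to 0.0527), 2-month-old WT/WT mouse 1, 2 or 3 (0.139, 0.118 and 0.109), 2-month-old 304Q/304Q mouse 1 or 3 (0.0534 and 0.0539), or 12-month-old WT/WT mouse 2, 3, 4 or 5 (0.0995, 0.131, 0.0696 and 0.0847). The value at 12 months between genotypes was called under 7 of 31 alternatives, among them without 2-month-old WT/WT mouse 1 or 5 (0.0431 and 0.0445), and without the libraries with choroid plexus RNA it was 0.24 (adjusted p = 0.528).

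Exons of Psme1 overlap those of Emc9 on the other strand, and whether strand was used in counting is not given in the sources used here, so reads of the 2 genes may be shared. Emc9 had a log2 fold change of 0.01 with age in 304Q/304Q mice (adjusted p = 0.984), −0.12 in WT/WT mice (0.56) and 0.05 between genotypes at 12 months (0.833). Of the 50 genes, 15 share exon sequence with another gene on either strand.

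**Figure D3:**
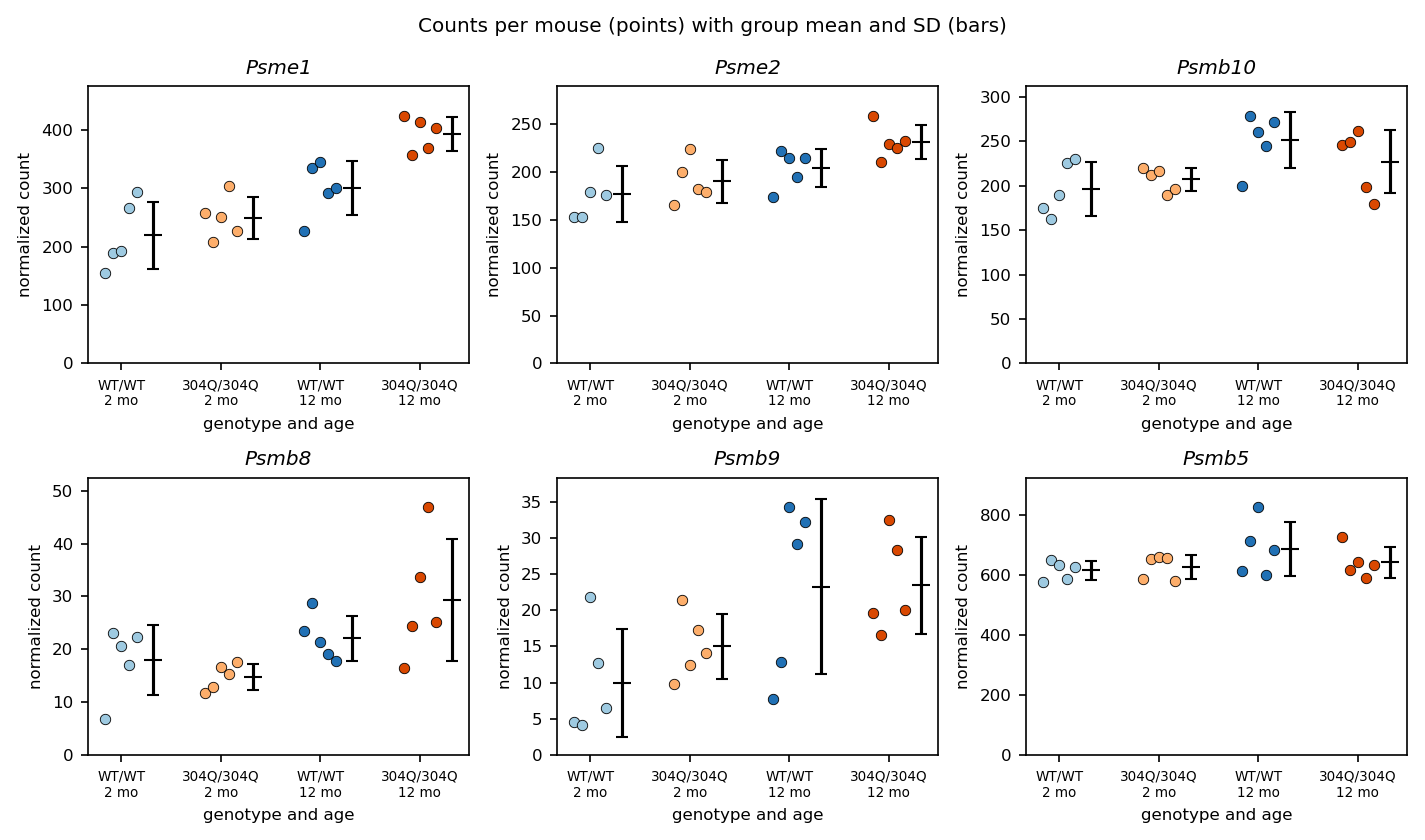
Normalized counts (vertical axes, from 0) of 6 genes in each mouse (points, 5 per group), with the group mean and SD beside them. The 12-month-old 304Q/304Q mice lie between 356.7 and 424.1 for Psme1, above all other mice, whereas the groups overlap for Psmb5.

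Psme2, the partner subunit of Psme1, lies 5911 bases away from it on chromosome 14. It had 153.1, 152.9, 179.0, 224.2 and 175.5 normalized counts in 2-month-old WT/WT mice, 165.4, 199.6, 223.8, 181.7 and 178.9 in 2-month-old 304Q/304Q mice, 173.7, 222.0, 213.8, 194.6 and 214.3 in 12-month-old WT/WT mice, and 258.3, 210.5, 228.8, 224.6 and 231.9 in 12-month-old 304Q/304Q mice. Each group overlapped with the others. Its log2 fold change with age was 0.20 ± 0.11 in WT/WT mice (adjusted p = 0.251) and 0.29 ± 0.11 in 304Q/304Q mice (adjusted p = 0.137), and it did not pass in any of the 31 alternatives of either comparison. Psme2b, a near copy of Psme2, had 1 to 10 counts per library and was not tested. The other activators had log2 fold changes with age of 0.11 (Psme3) and −0.08 (Psme4) in WT/WT mice and 0.04 and −0.10 in 304Q/304Q mice, none of them called.

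Interferon and MHC class I genes and microglial markers moved with age beside Psme1, and their part in its rise was not tested. Of the 11 interferon and MHC class I genes tested, 9 rose with age in WT/WT mice (median 0.63) and 9 in 304Q/304Q mice (median 0.67). Their summed level was 4711 to 5233 normalized counts in 2-month-old and 6967 to 8316 in 12-month-old WT/WT mice, and 4938 to 5281 and 6651 to 8371 in 304Q/304Q mice. Of the 9 microglial markers tested, 7 rose in each genotype, and their sums went from 1759 to 2083 counts up to 2641 to 3238 in WT/WT mice and from 1805 to 1946 up to 2720 to 3581 in 304Q/304Q mice. Of all genes tested, 11.5% were called with age in WT/WT mice and 7.26% in 304Q/304Q mice. Between genotypes at 12 months, 0 of the 11 interferon genes were called and 1 of the 9 microglial markers was called higher, beside 12.5% of all genes called in either direction.

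Immunoproteasome RNA was low for Psmb8 and Psmb9 and sizeable for Psmb10. Psmb8, the immune form of Psmb5, had 6 to 43 counts and Psmb9, the immune form of Psmb6, had 4 to 32 counts per library, at 0.438 and 0.344 RPKM. Psmb8 had 6.86, 23.0, 20.7, 17 and 22.4 normalized counts in WT/WT mice of 2 months, 11.8, 12.9, 16.7, 15.2 and 17.6 in 304Q/304Q mice of 2 months, 23.4, 28.7, 21.4, 19.1 and 17.8 in WT/WT mice of 12 months, and 16.5, 24.4, 33.8, 46.9 and 25.1 in 304Q/304Q mice of 12 months. Psmb9 had 4.57, 4.19, 21.8, 12.8 and 6.54, then 9.76, 21.5, 12.5, 17.3 and 14.1, then 7.80, 12.9, 34.2, 29.1 and 32.2, and 19.6, 16.6, 32.5, 28.4 and 20.1 normalized counts in the same order of groups. For either gene the 12-month-old 304Q/304Q mice overlapped with every other group. Both lie on chromosome 17 with 9956 bases between them. Psmb9 shares exons with Tap1 and Psmb8 with Gm20496 on the other strand, so a part of these few counts may belong to the overlapping genes. Psmb10, the immune form of Psmb7, had 9.09 RPKM against 17.6 RPKM for Psmb7.

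Psmb10 had 174.9, 162.4, 189.4, 225.3 and 229.7 normalized counts in WT/WT mice of 2 months and 199.4, 278.5, 259.8, 244.7 and 272.0 in 12-month-old WT/WT mice, so that mouse 1 of the older group fell within the younger range. In 304Q/304Q mice it had 220.3, 211.4, 216.5, 189.8 and 196.6 at 2 months and 246.0, 249.2, 261.3, 198.4 and 179.7 at 12 months, with overlap of the groups. The log2 fold change with age was 0.35 ± 0.12 in WT/WT mice (adjusted p = 0.0595) and 0.13 ± 0.12 in 304Q/304Q mice (adjusted p = 0.637), and the difference between these was −0.22 ± 0.17 (adjusted p = 0.536). The value in WT/WT mice was called without 2-month-old WT/WT mouse 4 or 5 (adjusted p = 0.0359 and 0.0322), 12-month-old WT/WT mouse 1 (0.0155) or 12-month-old 304Q/304Q mouse 5 (0.0462).

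The balance of immune to constitutive catalytic subunits was then measured in each mouse as the ratio of counts per kilobase. For Psmb10 to Psmb7 it was 39.2, 39.7, 48.4, 51.4 and 51.1% in WT/WT mice of 2 months and 52.4, 53.4, 46.7, 43.3 and 47.2% in 2-month-old 304Q/304Q mice. At 12 months it was 50.5, 75.6, 56.1, 51.8 and 69.5% in WT/WT mice and 54.5, 56.0, 62.9, 47.6 and 42.4% in 304Q/304Q mice. The geometric means were 45.6, 48.5, 59.9 and 52.2% in this order of groups. In WT/WT mice the log2 ratio was 0.39 higher at 12 months (exact 2-sided permutation test, p = 0.0317, adjusted over 12 tests 0.19).

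For Psmb8 to Psmb5 the geometric means were 0.743 and 0.642% in the younger and 0.869 and 1.17% in the older mice, WT/WT given first each time. In 304Q/304Q mice the log2 ratio was 0.86 higher at 12 months (exact permutation test, p = 0.0317, adjusted 0.19), with 0.546 to 0.827% at 2 months and 0.62 to 2.14% at 12 months. For Psmb9 to Psmb6 they were 0.276 and 0.466% at 2 months and 0.627 and 0.727% at 12 months, with ranges of 0.15 to 0.741% and 0.297 to 0.985% in WT/WT mice of the 2 ages. With the longest transcript as length, the geometric means in the same order were 1.32, 1.14, 1.54 and 2.07% for Psmb8 to Psmb5 and 0.181, 0.305, 0.410 and 0.476% for Psmb9 to Psmb6, so these percentages depend on the length while the differences between groups do not. None of the 12 comparisons passed after adjustment, and the smallest p that 5 against 5 mice allow is 0.00794. Between genotypes at 12 months the differences were 0.43 (Psmb8 to Psmb5), 0.21 (Psmb9 to Psmb6) and −0.20 (Psmb10 to Psmb7), with exact permutation p-values of 0.238, 0.603 and 0.222.

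**Figure D4:**
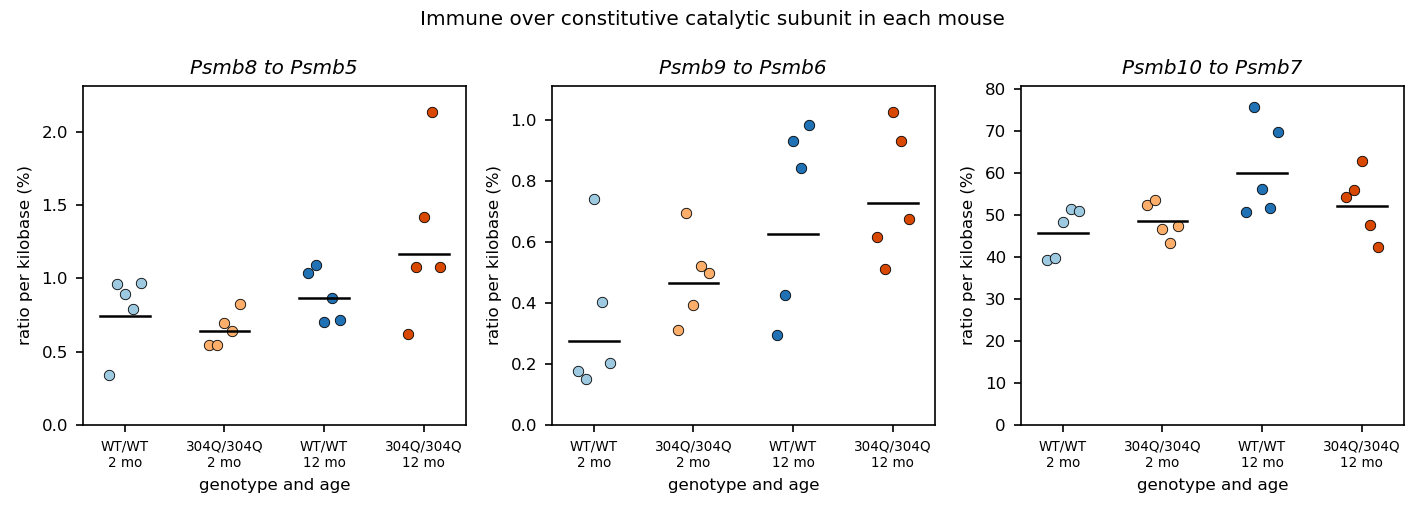
Ratio of counts per kilobase of each immune to its constitutive catalytic subunit, in percent (vertical axes from 0, with different scales), in each mouse (points) with the geometric mean of the group (line). Psmb10 reaches 39.2 to 75.6% of Psmb7 over the 20 mice, whereas Psmb8 and Psmb9 stay at or below 2.14% of Psmb5 and 1.02% of Psmb6.

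The constitutive catalytic genes were not called in any comparison. Psmb5 had 576.0, 649.4, 633.5, 586.6 and 627.4 normalized counts in 2-month-old WT/WT mice, 587.6, 651.3, 658.0, 654.8 and 580.9 in 2-month-old 304Q/304Q mice, 611.4, 712.6, 825.3, 598.8 and 683.9 in 12-month-old WT/WT mice, and 727.7, 615.9, 642.7, 589.8 and 631.4 in 12-month-old 304Q/304Q mice. Psmb6 had 1485, 1602, 1544, 1687 and 1763, then 1653, 1619, 1691, 1750 and 1491, then 1440, 1615, 1915, 1794 and 1701, and 1666, 1709, 1654, 1588 and 1557 normalized counts in the same order of groups. Psmb7 had 898.3, 822.3, 787.2, 880.9 and 902.8, then 844.9, 795.1, 931.8, 882.2 and 836.5, then 793.0, 740.3, 931.1, 949.8 and 786.1, and 907.8, 893.9, 835.2, 838.4 and 852.2. Exons of Psmb7 overlap those of Nek6, so some of its reads may be shared. All 4 groups overlapped for each of the 3 genes. The fold changes between genotypes at 12 months were −0.10 ± 0.08 (Psmb5), −0.05 ± 0.07 (Psmb6) and 0.04 ± 0.07 (Psmb7) on the log2 scale. Without the libraries with choroid plexus RNA, they were −0.22 (Psmb5, adjusted p = 0.264), −0.20 (Psmb6, 0.178) and −0.13 (Psmb7, 0.376), so the value of Psmb7 changed sign. With age in WT/WT mice the values went from 0.16 to 0.21 (Psmb5), from 0.07 to 0.20 (Psmb6) and from −0.03 to 0.13 (Psmb7) without these libraries, and none of them was called (edgeR adjusted p from 0.117 to 0.294).

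Aside from Psme1, age went with small differences. In WT/WT mice 35 of 43 genes had a value above 0, against 50.4% of all genes tested, with a median of 0.06. The 2-month-old WT/WT mice also enter the comparison of genotypes at 2 months, so its count of genes above 0 is not independent of this one. At an unadjusted p under 0.05 there were 8 (Psme1, Psmb10, Psmb2, Psmb3, Psmc2, Psmc3 and Psmd3 higher, Psmc6 lower), against 27.5% of all genes, and the ages did not overlap for 0 of 43, against 6.57% of all genes. Exons of Psmc3 overlap those of Slc39a13 on the other strand, so some of its reads may be shared. Slc39a13 rose with age in WT/WT mice as well (0.245, edgeR adjusted p = 0.0276). Psme1, Psmb10 and Psmd10 (0.26) had the highest values and Psmc6 (−0.15), Psmd5 (−0.10) and Psme4 (−0.08) the lowest. The count of called genes rose from 1 to 7 when 12-month-old WT/WT mouse 1 was left out (Psmb10, Psmb2, Psmc3, Psmc6, Psmd3, Psmd4 and Psme1), which is 16.3% of the 43 genes. Without this library 20.9% of all genes were called. Without the libraries with choroid plexus RNA, 2 other genes were called, Psmb2 (0.30, adjusted p = 0.0366) and Psmb3 (0.35, adjusted p = 0.0423), from 2 remaining 12-month-old WT/WT mice, and 9.03% of all genes were called.

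In 304Q/304Q mice 26 of 43 genes had a value above 0 with age, against 48.9% of all genes, with a median of 0.02. At an unadjusted p under 0.05 there were 3, Psme1, Psme2 and Psmd3, against 19.1% of all genes. The core genes had a median of −0.01 (5 of 14 above 0) and the regulatory genes one of 0.04 (18 of 24 above 0). Psme1, Psme2 and Psmb3 (0.14) had the highest values and Psmg3 (−0.22), Psmd10 (−0.13) and Psma4 (−0.12) the lowest. The groups did not overlap for 2 genes, Psme1 and Psmd3, against 7.8% of all genes. The non-ATPase gene Psmd3 had 1978, 2047, 2106, 2027 and 2026 normalized counts at 2 months and 2222, 2202, 2149, 2197 and 2261 at 12 months. Its change was small, at 0.12 ± 0.05 on the log2 scale (adjusted p = 0.175), and it was 0.12 in WT/WT mice as well (adjusted p = 0.119).

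The interaction of genotype and age, which asks whether the effect of age differed between genotypes, was called for 0 of the 43 genes by edgeR and by DESeq2. Of all genes, edgeR called 1.95% and DESeq2 3.25%. At an unadjusted p under 0.05 there were also 0 of 43, where 15.9% of all genes lay. The highest values were those of Psme1 (0.21), Psmd5 (0.18) and Psmc6 (0.14), and the lowest those of Psmd10 (−0.39), Psma7 (−0.24) and Psmg3 (−0.24). Of the 43 values 31 lay below 0, against 51.9% of all genes, with a median of −0.05. The 2-month-old WT/WT mice enter this contrast too. The count is thus not independent of those for genotype at 2 months and for age in WT/WT mice.

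Single mice stood apart in many proteasome genes at once. Each gene's log2 level was set against its mean over the 20 mice, and the median of these deviations was taken in each mouse. In 2-month-old WT/WT mice 1, 2 and 3 only 7, 12 and 9 of the 43 genes lay above their mean, and in mice 4 and 5 there were 29 and 27. In 12-month-old WT/WT mice the numbers were 9, 17, 35, 29 and 26, in 2-month-old 304Q/304Q mice 29, 24, 27, 27 and 10, and in 12-month-old 304Q/304Q mice 34, 31, 28, 21 and 21. The 5 mice with at most 12 of the 43 genes above had the lowest library scaling factors (TMM). These were 0.9615, 0.9819 and 0.9822 in 2-month-old WT/WT mice 1, 2 and 3. They were 0.9773 in 2-month-old 304Q/304Q mouse 5 and 0.9761 in 12-month-old WT/WT mouse 1. The other factors ran from 0.9903 to 1.026. Of all 12153 genes tested, between 6014 and 6367 lay above their mean in a mouse. The part of scaling was not tested. The core and the regulatory median had the same sign in 17 of 20 mice. The core median ran from −0.15 to 0.06 in 2-month-old and from −0.14 to 0.16 in 12-month-old WT/WT mice. In 304Q/304Q mice its lowest and highest values were −0.10 and 0.04 at 2 months and −0.05 and 0.09 at 12 months, so all groups overlapped in the core genes. The regulatory median lay between 0.04 and 0.08 in all 5 of the 12-month-old 304Q/304Q mice, where the highest value at 2 months was 0.04 in either genotype, so these groups barely touched. This was not so for the ATPase or the non-ATPase genes alone. In these 5 mice the ATPase median ran from −0.022 to 0.066, with a highest value at 2 months of 0.063. The non-ATPase median ran from −0.000 to 0.077, with a highest value at 2 months of 0.047. The median of the 4 activator genes, which include Psme1, ran from 0.073 to 0.215, with a highest value at 2 months of 0.020. In WT/WT mice the regulatory median ran from −0.13 to 0.04 at 2 months and from −0.08 to 0.08 at 12 months.

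**Figure D5:**
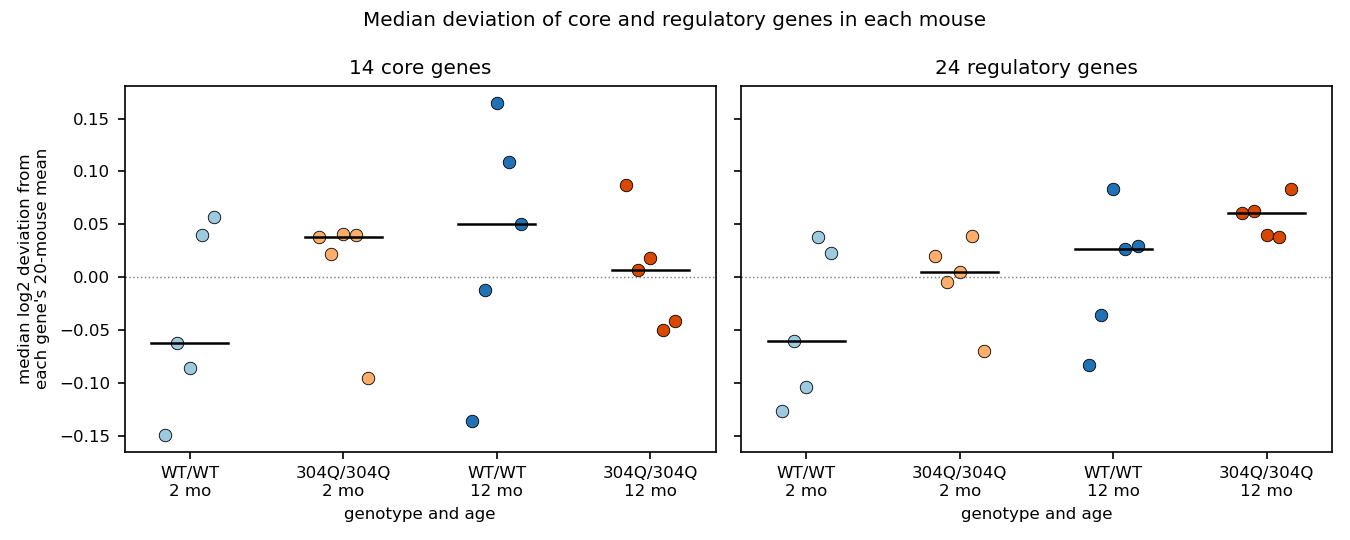
Median log2 deviation from each gene's mean over 20 mice, for the 14 core genes (left) and the 24 regulatory genes (right), with 1 point per mouse and a line at the group median. The groups overlap in the left panel, and WT/WT mice spread from −0.15 to 0.16 in the core genes, while the 12-month-old 304Q/304Q mice lie between 0.04 and 0.08 in the regulatory genes, at the upper edge of the 2-month-old mice. The medians of the ATPase genes alone and of the non-ATPase genes alone (not drawn) overlap between the 2 ages in 304Q/304Q mice.

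Genes that work with the proteasome were called in a few places. Of the 10 other subunits and partners tested, Ube3c, a ubiquitin ligase found at the proteasome, was higher in 304Q/304Q mice at 12 months (0.17 ± 0.05, adjusted p = 0.031). Adrm1, a ubiquitin receptor of the regulatory particle, rose with age in WT/WT mice (0.34 ± 0.07, adjusted p = 0.00471) and in 304Q/304Q mice (0.28 ± 0.07, adjusted p = 0.0132). Of the 6 shuttle and gate factor genes, Ubqln4 was lower (−0.26 ± 0.05, adjusted p = 0.00214) and Zfand5 higher (0.19 ± 0.06, adjusted p = 0.0224) in 304Q/304Q mice at 12 months. Zfand5, which encodes a factor that stimulates the proteasome, fell by 0.23 ± 0.06 with age in WT/WT mice (adjusted p = 0.0107), and Ubqln2, which encodes a shuttle for ubiquitinated protein, rose by 0.25 ± 0.06 with age in 304Q/304Q mice (adjusted p = 0.0162). Of the 5 genes that control proteasome transcription through NRF1 and NRF2 and of the 4 ubiquitin and ubiquitin-activating genes tested, 0 were called by edgeR in any comparison, and in each list 1 gene had an unadjusted p under 0.05 between genotypes at 12 months, as had 1 of the ubiquitin genes with age in WT/WT mice. Of all genes tested, edgeR called 12.5% between genotypes at 12 months, 11.5% with age in WT/WT mice and 7.26% with age in 304Q/304Q mice. An unadjusted p under 0.05 was found for 27.3% of all genes between genotypes at 12 months and for 27.5% with age in WT/WT mice.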

How the data were processed

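PolyA RNA from the cerebellum of 20 mice was made into stranded libraries. Alignment by the authors was to GRCm38 (STAR) and counting was per Ensembl gene (Rsubread), and the authors deposited raw counts of 29200 genes with no normalization. All 20 columns were matched to a mouse by name. The labels name the locus of the wild-type alleles differently from the study, and the study's name, Atxn3, was used. Ensembl IDs were paired with symbols through the GRCm38 annotation (29150 of 29200 matched).

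The counts were scaled with TMM and fitted in edgeR 4.0.16 (R 4.3.3) with a quasi-likelihood model with 1 term per group, over all genes that averaged 50 or more counts per library. Normalized counts were brought to the mean library size, and RPKM used merged exon lengths. Adjusted p-values are Benjamini-Hochberg over the 12153 genes tested, and a gene was called at 0.05 or less. Ratios had 0.5 added to each count and were compared by exact 2-sided permutation tests. The common biological coefficient of variation was 0.113. Replicates differed by more than sampling noise in all 40 pairs (chi-square per degree of freedom at least 4.43). Which mice shared a litter is not given in the labels. The edgeR p-values weigh a difference between groups against the spread between mice, estimated over all 4 groups.

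Alternatives were DESeq2 1.42.0, 3 surrogate variables from sva 3.50.0 in either tool, DESeq2's size factors, 3 other filters on low counts, only the groups compared, a replicate block, removal of a trend with GC content, each library left out and, for ratios, an added count of 2 or the longest transcript as length. Leaving out the libraries with choroid plexus RNA was chosen after seeing the data. The fits were tested on simulated counts. The proteasome genes and all gene lists were chosen with earlier results of these data known. Genes named are all catalytic and immune subunits, those called, the 3 highest and lowest in each comparison and called genes of the pathway lists. Psmb1, Psme2, Psmd3 and others that stood out were named after their values were seen. Start-site sequences are from RefSeq (GRCm38.p6).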

Additional observations from a re-analysis of the deposited data

Results flagged for a closer look

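The log2 ratio of Psmb8 to Psmb5 was −8.19 in 2-month-old WT/WT mouse 1, while the other 4 mice of the group lay between −6.98 and −6.69. The gap was 0.807 of the range of the group. Psmb8 had 6 counts in this library, so the value rests on very few reads. It was the 1 value that stood apart in 40 groups of 5 that were looked at, and chance alone sets about 5% of such groups apart.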

How the results depend on the processing

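At 2 months 0 proteasome genes were called under all 31 alternatives, which called 0.0082 to 0.428% of all genes. At 12 months between genotypes, 1 gene (Psme1) in place of 0 was called with DESeq2, with DESeq2 and surrogate variables, with edgeR and surrogate variables, with only the groups compared, and with the GC trend removed. This is 2.33% of the 43, and these settings called 14.5, 11.1, 9.99, 10.7 and 12.6% of all genes, in this order. Leaving out single libraries gave 0 to 1, beside 8.55 to 17% of all genes. With age in WT/WT mice the count of 1 became 2 with DESeq2 (Psmb10, Psme1), with no filter on low counts (Psme1, Psmg4) and without the libraries with choroid plexus RNA. These settings called 13.9, 4.22 and 9.03% of all genes. The count became 0 with surrogate variables in DESeq2 and in edgeR and with only the groups compared, beside 8.14, 6.75 and 6.09%. With the GC trend removed the 1 gene was Psmd11, and with edgeR's own filter it was Psmg4, beside 8.3 and 8.43%. Without 12-month-old 304Q/304Q mouse 5 it was Psmb10, beside 11.8%. Single libraries left out gave 0 to 7, beside 5.9 to 20.9% of all genes. With age in 304Q/304Q mice the count of 1 became 2 with DESeq2 and surrogate variables (Psmd3, Psme1) and 0 without the libraries with choroid plexus RNA. These settings called 13.7 and 3.59% of all genes. Single libraries left out gave 1 each time, beside 5.54 to 7.96% of all genes. The interaction gave 1 gene (Psmg4, lower) with edgeR's own filter, beside 1.29% of all genes. It gave 0 under the other 29 alternatives, beside 0.668 to 4.56% of all genes. The cause of these shifts was not tested. The median over the 43 genes ran from 0.02 to 0.08 at 2 months, from −0.11 to 0.02 at 12 months, from 0.01 to 0.16 with age in WT/WT mice, from −0.01 to 0.04 with age in 304Q/304Q mice and from −0.15 to −0.02 for the interaction, so its sign turned between genotypes at 12 months and with age in 304Q/304Q mice. The extremes −0.11, 0.16 and −0.15 were those without the libraries with choroid plexus RNA. All 156 alternative values of the ratios kept their side of the threshold (lowest adjusted p 0.127). The labels do not tie equal replicate numbers to a shared litter, and mice with equal numbers did not deviate together in all pairs (median correlation of deviations −0.035 over 30 same-numbered pairs, of which 6 were over 0.1, and 0.00704 over 120 others). With the replicate block the counts of called proteasome genes were 0, 0, 1, 1 and 0, as without it, beside 0.0494, 11.9, 10.7, 6.81 and 1.68% of all genes. Psmb8, Psmb9 and Psme2b have too few counts for a firm statement on their change.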
